A study of Mus musculus with 6 samples.

Results

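The genes described here are the Wnt ligands, their receptors and their modulators in mLPS1, a murine cell line grown from dedifferentiated liposarcoma, a tumour of the fat lineage. Members were chosen by gene symbol: the Wnt, Frizzled (Fzd), Sfrp, Dkk, R-spondin (Rspo), Lgr, Axin, Tcf7 and Lrp5 or Lrp6 names, with Lef1, Ctnnb1, Apc, Wls, Ror2, Ryk, Porcn, Notum and a few more. Of 14472 genes in the authors' deposited table, 41 fitted the rule, and each had a p-value. The gene name table used here holds 61 symbols of that form, and the other 20 were not analysed here.

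RNA was sequenced from 6 libraries, 3 of the genotype WT (the line called mLPS1 wild type) and 3 of the genotype NICD Knockout (the line called mLPS1 NICD Knockout). NICD stands for Notch intracellular domain, the receptor fragment that reaches the nucleus and, bound to the DNA-binding protein Rbpj, activates Notch target genes. By its title the series concerns over-expressed Notch, its design text calls the altered cells dNICD, and the sources used here do not say whether an introduced Notch fragment is present in the WT line. The labels also give each library a p number, 35, 37 and 40 for WT and 34, 36 and 39 for NICD Knockout, without saying what it counts, and no number occurs in both groups. Each genotype is 1 cell line, the labels do not state that the libraries came from separate cultures, and the p-values therefore reflect only how far these libraries vary, which may be technical variation. The direction of each change, knockout over wild type, comes from the name the authors gave the table.

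The table holds 1 value per gene for the whole comparison: the mean normalised count over the libraries, the log2 fold change, the standard error (SE) of that change and the adjusted p. No value of a single library was used, so whether the libraries of the groups overlap for a gene was not examined, and the depth of each library is unknown. A fitted level per group, in normalised counts per library, was derived by splitting the mean according to the fold change, taking 3 libraries for each group. Fitted levels have no error of their own, and the error of each comparison is that of its fold change, given as an SE or a 95% Wald interval. The labels can be checked on Notch1, which fell from a fitted level of 7665 to 2234, and on 7 tested Notch targets, all of which fell in the authors' deposited table. Notch RNA from an introduced fragment would not be told apart from the endogenous gene.

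Wnt ligands are secreted, lipid-modified glycoproteins. When they bind a Frizzled receptor together with Lrp5 or Lrp6, a cytoplasmic complex built on Axin and Apc stops marking beta-catenin for destruction, and beta-catenin then works with TCF/LEF factors on target genes. Other Wnt signals, for which Wnt5a is the usual example, run through Ror2 or Ryk and act on cell shape and movement rather than on beta-catenin. In the fat lineage, beta-catenin signalling is known to hold precursors back from becoming fat cells, and Wnt10b is the ligand best known for it.

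The lines differed in which ligands and receptors led. In the knockout, 6 ligands rose from low levels (Wnt7a, Wnt10a, Wnt6, Wnt7b, Wnt10b and Wnt9a) while Wnt5a, the main ligand of the wild type line, fell 8.88-fold. The receptors Fzd3, Fzd6, Fzd2 and Ror2 rose, and Fzd5, Fzd7, Fzd4, Fzd9, Lrp5, Lrp6 and Ryk fell. Axin2 and Notum, which beta-catenin signalling is known to induce, rose 6.11-fold and 13.4-fold. They belong to a list of 18 tested targets, of which 4 rose and 6 fell (22.2% and 33.3%, beside 25.4% and 25.1% of all genes). The median log2 fold change of these targets was -0.03. Of the 14 tested targets that are no members, 14.3% rose and 42.9% fell, with a median of -0.26. Beta-catenin itself (Ctnnb1), Apc, Axin1, Lef1 and Tcf7 did not pass the test.

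At an adjusted p under 0.05 in the authors' deposited table, 27 of the 41 members were called, beside 50.5% of all 14470 genes tested. Of these, 15 were higher in the knockout (25.4% of all genes were) and 12 were lower (25.1% of all genes were). The median log2 fold change of the members was 0.13, against 0.02 over all genes, and the median size of the change regardless of sign was 1.12 against 0.52. A called change of at least 2-fold was found for 22 members, 15 higher and 7 lower, and for 23.2% of all genes. Of the 15 that rose, 12 had a fitted wild type level under 50 normalised counts, a limit set after the values were seen, as did 34.9% of all genes called higher. Of the 12 that fell, 2 lay under that limit in wild type, as did 6.89% of all genes called lower. Among the 17 members with a mean under 100, 9 were called higher and 2 lower, and the shares over all genes with such a mean were 28.1% and 11.6%. Wnt7a, Wnt10b, Fzd3 and Ror2 had fitted wild type levels below 1.56, the smallest mean of any gene tested. The counts of rises therefore describe the tested members alone.

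**Figure D1:**
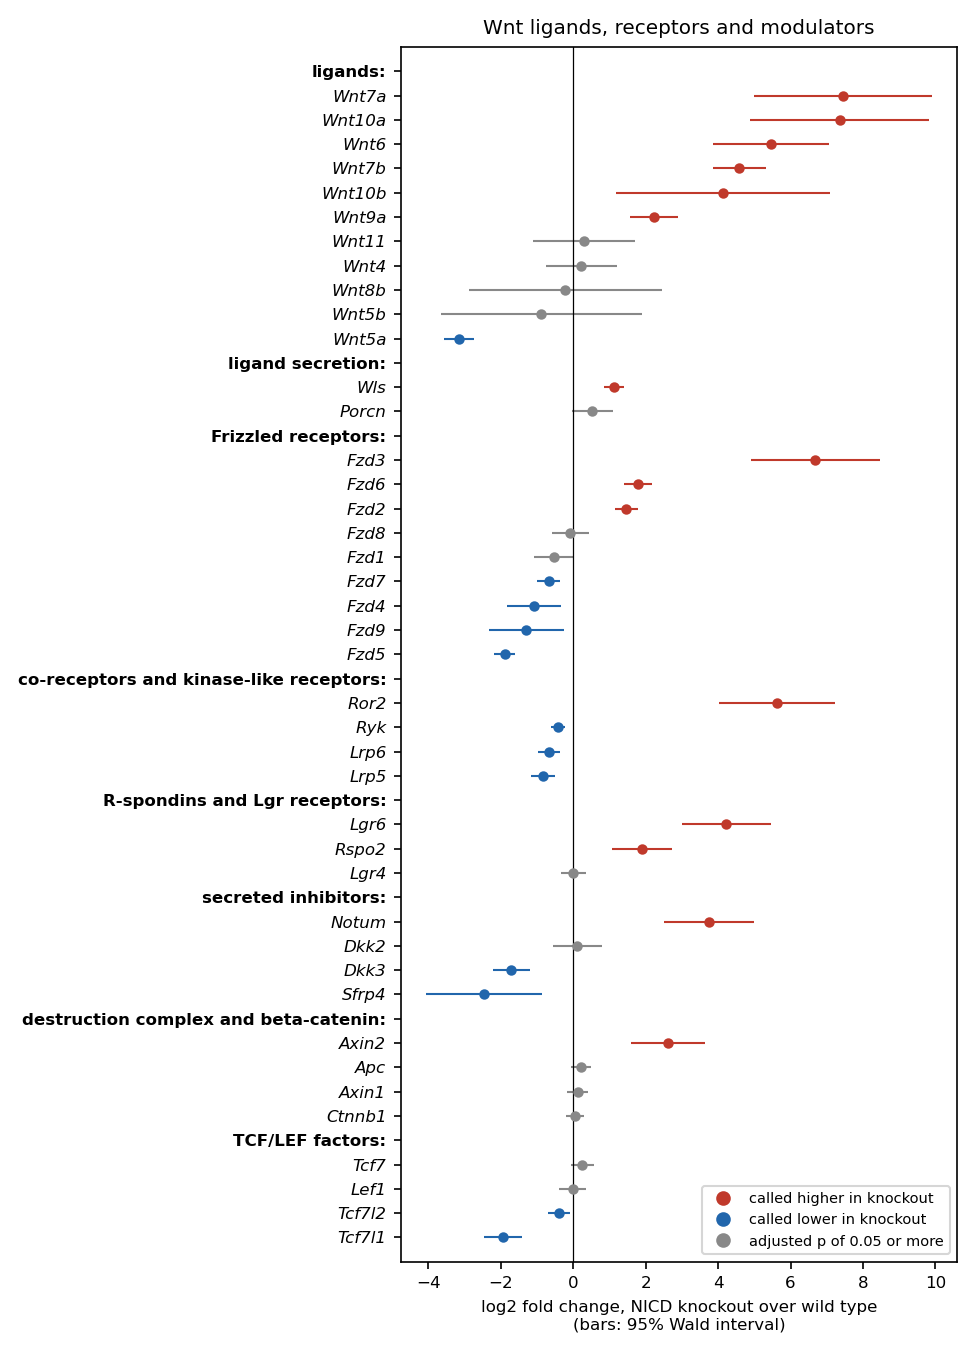
Log2 fold change, NICD knockout over wild type, of each of the 41 members, grouped by role, with 95% Wald intervals as bars; red points were called higher, blue points lower, and grey points had an adjusted p of 0.05 or more. Among the ligands 6 points are red and Wnt5a, the blue one, lies at -3.15, while Ctnnb1, Apc, Axin1, Lef1 and Tcf7 lie close to 0.

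Of 11 ligands tested, 6 rose, 1 fell and 4 did not pass. The shares that rose and fell were 54.5% and 9.09%, beside 25.4% and 25.1% of all genes. Wnt5a (ENSMUSG00000021994, chromosome 14), which drives cell movement and polarity, fell from a fitted level of 6067 to 683. The authors' deposited table puts its log2 fold change at -3.15 (SE 0.22, adjusted p = 9.17e-46), the smallest p of the 41 members, and the interval of the fold ran from 6.61 to 11.9. By contrast, Wnt10a (ENSMUSG00000026167), a ligand of the beta-catenin route, rose from a fitted 2.12 to 347.3. The authors' deposited table gives Wnt10a a log2 fold change of 7.35 (SE 1.26, adjusted p = 3.73e-08), with a wide interval on the fold of 29.5 to 908.3.

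Wnt7b (ENSMUSG00000022382) rose from a fitted 14.0 to 335.6, and its interval was narrower (log2 fold change 4.59, SE 0.37, adjusted p = 3.08e-33 in the authors' deposited table). Its close relative Wnt7a had a wild type level under 1 normalised count per library and a fitted 66.8 in the knockout. That is 66.8-fold higher when wild type is set at that floor of 1, and without the floor the interval of the fold was 31.6 to 953.4. Wnt7a had an adjusted p of 2.02e-08 in the authors' deposited table. The same holds on a smaller scale for Wnt10b, the ligand known to restrain fat cell formation, which was fitted below the floor in wild type. Its fitted level was 12.5 in the knockout, 12.5-fold above the floor (adjusted p = 0.0142 in the authors' deposited table). Without the floor the interval of its fold was 2.28 to 135.7. Wnt10b is the least certain of the rises, with a mean normalised count of 6.62 and an SE of 1.50 in the authors' deposited table.

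Wnt6, which lies next to Wnt10a on chromosome 1, rose from 2.06 to 90.5 in fitted level, with a log2 fold change of 5.45 (SE 0.82, adjusted p = 2.40e-10) in the authors' deposited table. Wnt9a rose from 30.1 to 141.2, and the authors' deposited table gives it a log2 fold change of 2.23 (SE 0.34, adjusted p = 7.35e-10). The ligands that did not pass, Wnt4, Wnt11, Wnt8b and Wnt5b, are listed in the authors' deposited table with means of 3.57 to 21.0 and log2 fold changes of -0.88 to 0.29. With SEs of 0.50 to 1.42, a 2-fold rise lies within the 95% interval of each of these 4 genes. A 2-fold fall does too, except for Wnt4 (-0.75 to 1.21). The median log2 fold change of the 11 ligands was 2.23, and it stayed 2.23 with Wnt7a and Wnt10b set at the floor. These 11 are the tested ones of 19 ligand symbols. Wnt7a, Wnt10b, Wnt6 and Wnt10a had fitted wild type levels of only 0.38 to 2.12. The smallest mean of any gene tested was 1.56, and Wnt7a and Wnt10b lay below it in wild type. At those levels in both lines, their means would have been smaller than that of any gene tested. For Wnt6 and Wnt10a, whether they were tested only because of their knockout levels is unknown. The median and the count of rises therefore describe the tested ligands alone.

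**Figure D2:**
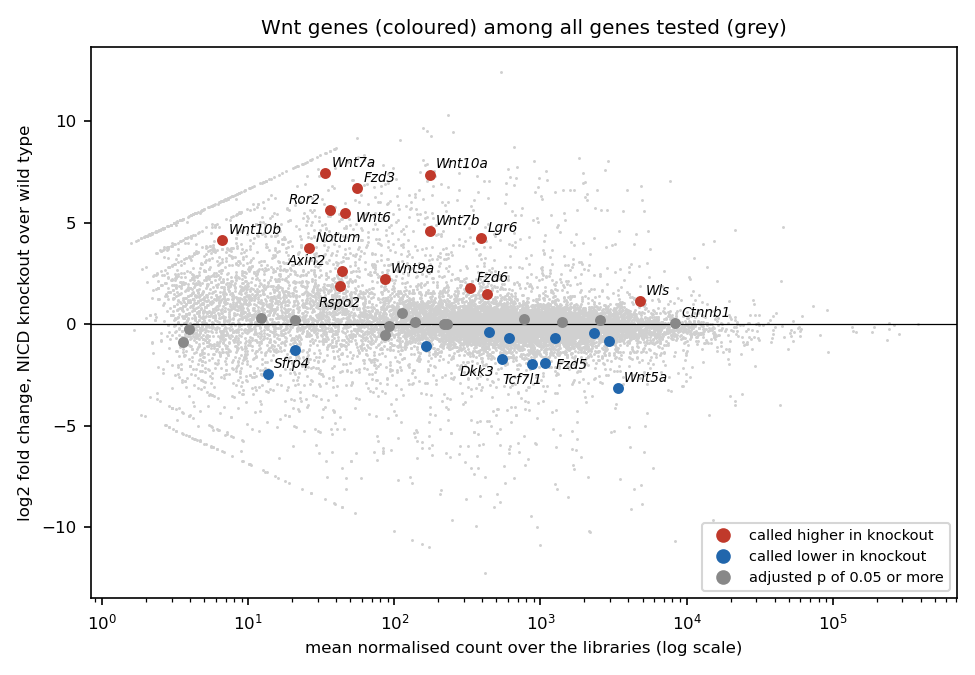
Log2 fold change against the mean normalised count (log axis) for all 14470 genes tested (grey) and the 41 members (coloured as called higher, called lower or neither). The rising ligands and the receptors Fzd3 and Ror2 sit in the left part of the plot, with means between 6.62 and 174.8, while Wnt5a, at a mean of 3375, and most other falling members sit to the right.

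Levels of different genes can be set side by side only per length, and for that each fitted level was divided by the total exon length of the gene in kb. On this scale of normalised counts per kb, Wnt5a stood at 775.5 in wild type and made up 97.0% of the sum over the 11 ligands, while the next, Wnt9a, stood at 9.04. In the knockout Wnt10a was first at 140.7 per kb (33.9% of the sum), followed by Wnt5a at 87.3 (21.0%), Wnt7b at 68.5 (16.5%), Wnt9a at 42.4 (10.2%) and Wnt6 at 41.3 (9.94%). With the Wnt5a fold change at either end of its interval and the other ligands held as fitted, the share of Wnt5a in the knockout ran from 16.9% to 25.7%. That range leaves out the error of the other ligands, and the order of the ligands rests on fitted levels without an error of their own. The ligands other than Wnt5a summed to 24.3 per kb in wild type and 328.3 in the knockout, 13.5-fold higher. The sum over all 11 ligands went the other way, from 799.8 to 415.6 per kb, since the loss of Wnt5a outweighed the gains.

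Ligand secretion had 2 members. Wls, the carrier that takes Wnt proteins to the cell surface, rose 2.17-fold, from a fitted 3004 to 6523 (log2 fold change 1.12, SE 0.14, adjusted p = 1.54e-14 in the authors' deposited table). Porcn, the enzyme that attaches the lipid to Wnt ligands, had a log2 fold change of 0.53 and did not pass (adjusted p = 0.111 in the authors' deposited table). The median of the 10 neighbouring genes on each side of Porcn was -0.27, and with it subtracted the change of Porcn was 0.80 and passed (adjusted p = 0.0134).

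Of 9 Frizzled receptors tested, 3 rose and 4 fell (33.3% and 44.4%, beside 25.4% and 25.1% of all genes). The rises include Fzd3, with a fitted wild type level of 1.07. At that level in both lines its mean would have been below 1.56, the smallest of any gene tested. The shares therefore describe the tested receptors alone. Fzd5 (ENSMUSG00000045005) fell 3.72-fold, from a fitted 1706 to 459, with a log2 fold change of -1.89 (SE 0.14, adjusted p = 1.90e-38) in the authors' deposited table. Fzd2 rose 2.77-fold, from 229.2 to 633.9, with a log2 fold change of 1.47 (SE 0.16, adjusted p = 2.72e-18) in the authors' deposited table. Fzd6, a receptor known for planar polarity, rose 3.46-fold, from 147.9 to 511.1 (adjusted p = 5.85e-18 in the authors' deposited table). These 3 changes had narrow errors, and the intervals of Fzd5 and Fzd2 lay on opposite sides of 0.

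Fzd3, which is known for guiding axons and polarity together with Fzd6, rose from a fitted 1.07 to 110.5, and the authors' deposited table gives a log2 fold change of 6.68 with an SE of 0.90 (adjusted p = 1.57e-12). Smaller falls were found for Fzd7 (1.60-fold), for Fzd4 (2.12-fold), a receptor of blood vessels in the retina, and for Fzd9 (2.45-fold), for which the authors' deposited table gives adjusted p-values of 1.08e-04, 0.0106 and 0.0307. The call of Fzd9 ended when the neighbour median was subtracted (adjusted p = 0.0505). Fzd1 and Fzd8 did not pass, and the authors' deposited table gives them log2 fold changes of -0.53 and -0.08.

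Per kb of exon, the order of the receptors changed. In wild type Fzd5 led at 246.6 normalised counts per kb (41.6% of the 9 receptors), then Fzd7 at 166.5 and Fzd2 at 62.6. In the knockout Fzd2 led at 173.1 (33.9%), followed by Fzd6 at 106.1, Fzd7 at 104.2 and Fzd5 at 66.3 (13.0%). Fzd6 and Fzd7 were nearly level there, and their order rests on values without an error of their own. The sum over the 9 receptors differed less than its parts, at 592.7 per kb in wild type and 511.1 in the knockout.

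**Figure D3:**
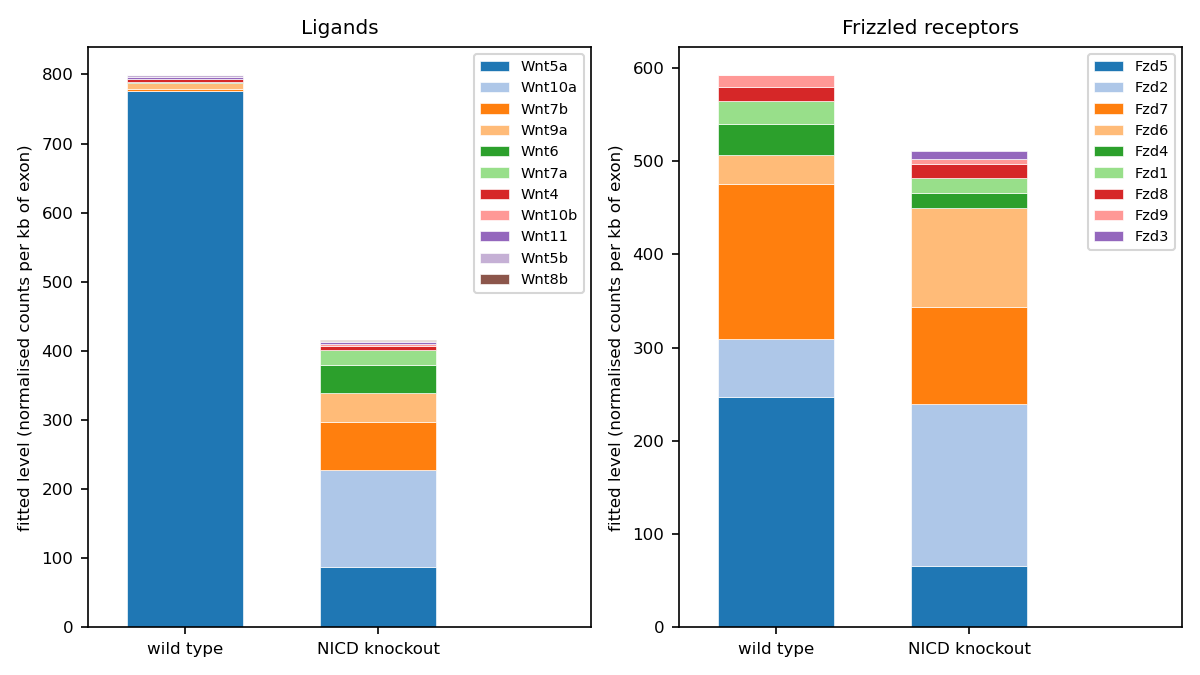
Fitted level in normalised counts per kb of exon, stacked over the 11 ligands (left) and the 9 Frizzled receptors (right), in wild type and NICD knockout; each colour is a gene and the bars start at 0. Wnt5a fills 97.0% of the wild type ligand bar and 21.0% of the knockout bar, and the leading receptor is Fzd5 in wild type and Fzd2 in the knockout.

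The co-receptors of the beta-catenin route fell modestly. Lrp5 fell 1.79-fold, from a fitted 3751 to 2096 (log2 fold change -0.84, SE 0.17, adjusted p = 2.76e-06 in the authors' deposited table). Lrp6 fell 1.59-fold, from 1534 to 964, with an adjusted p of 1.03e-04 in the authors' deposited table. Genes around Lrp6 on chromosome 6 had a neighbour median of -0.44, and with it subtracted Lrp6 stood at -0.23 and did not pass (adjusted p = 0.240). Among the kinase-like receptors, Ryk, the best expressed of these 4 genes per kb in both lines, fell 1.34-fold (log2 fold change -0.42, SE 0.09, adjusted p = 3.62e-05 in the authors' deposited table). Ror2, a receptor tyrosine kinase through which Wnt5a signals, went the other way, from a fitted 1.44 to 71.2, with a log2 fold change of 5.63 (SE 0.82, adjusted p = 4.97e-11) in the authors' deposited table. Even so, Ror2 reached 16.8 normalised counts per kb in the knockout, beside 441.4 for Ryk. The wild type level of Ror2, like that of Fzd3, lay below the smallest mean of any gene tested (1.56).

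R-spondins strengthen Wnt signals by binding Lgr receptors and taking Frizzled-removing ubiquitin ligases off the cell surface. Lgr6, 1 of their receptors and a stem cell marker of skin, rose 18.7-fold, from a fitted 40.1 to 748 (log2 fold change 4.22, SE 0.63, adjusted p = 1.34e-10 in the authors' deposited table). Rspo2 rose 3.72-fold, from 17.9 to 66.6, with an adjusted p of 3.59e-05 in the authors' deposited table, and the median over its neighbours on chromosome 15 was 0.49. Lgr4, another receptor of the family, stood at a fitted 219.2 in wild type and 220.3 in the knockout (log2 fold change 0.01, interval -0.34 to 0.35). Around Lgr4 on chromosome 2 the neighbour median was -0.55, and with that subtracted Lgr4 passed as higher (0.56, adjusted p = 0.00410).

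Secreted inhibitors moved in both directions. Dkk3, a divergent member of the Dickkopf family of Wnt antagonists, fell 3.26-fold, from a fitted 830.5 to 254.4 (log2 fold change -1.71, SE 0.26, adjusted p = 3.62e-10 in the authors' deposited table), and its neighbours had a median of -0.31. Sfrp4, which binds Wnt ligands outside the cell, fell from 22.9 to 4.19, with a log2 fold change of -2.45 (SE 0.82, adjusted p = 0.00703) in the authors' deposited table. Notum, an enzyme that removes the lipid from Wnt ligands and is itself induced by beta-catenin, rose from 3.63 to 48.6 (log2 fold change 3.74, SE 0.64, adjusted p = 2.93e-08 in the authors' deposited table). On chromosome 11 the neighbour median around Notum was 0.74, and with it subtracted Notum was still called higher. For Dkk2 the authors' deposited table gives a log2 fold change of 0.12 with an adjusted p of 0.800 (95% interval from -0.55 to 0.79).

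The core of the beta-catenin route showed small differences. Ctnnb1, the most abundant member per kb of exon, stood at a fitted 8215 in wild type and 8472 in the knockout, with an interval of -0.20 to 0.29 for its log2 fold change. Apc and Axin1, the scaffolds of the destruction complex, did not pass, and the authors' deposited table gives them log2 fold changes of 0.21 and 0.13 with SEs of 0.14 and 0.15. The neighbours of Apc had a median of 0.53, and with it subtracted Apc stood at -0.32 and passed as lower (adjusted p = 0.0459). Axin2, the inducible relative of Axin1, was the exception in this group: it rose from a fitted 12.3 to 75.2 (log2 fold change 2.61, SE 0.52, adjusted p = 2.68e-06 in the authors' deposited table). In the knockout Axin2 was still far below Axin1 per kb, at 13.7 against 385.6.

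Of the 4 TCF/LEF factors, Tcf7l1 changed most. Tcf7l1 (ENSMUSG00000055799), which acts mainly as a repressor of Wnt targets, fell 3.84-fold, from a fitted 1390 to 361.5 (log2 fold change -1.94, SE 0.26, adjusted p = 2.26e-12 in the authors' deposited table). On chromosome 6 its neighbour median was -0.54, and the fall was still called with this subtracted. Tcf7l2 fell 1.31-fold (adjusted p = 0.0271 in the authors' deposited table), a call that ended with neighbours subtracted (-0.15, adjusted p = 0.462) and when fold changes were centred on well expressed genes (-0.34, adjusted p = 0.0569). Tcf7 and Lef1 did not pass, and the authors' deposited table gives them log2 fold changes of 0.25 and -0.01 with SEs of 0.16 and 0.19. Per kb, Tcf7l1 led the 4 factors in wild type (354.2, or 50.3% of their sum) and Tcf7 led in the knockout (317.2, or 66.2%).

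Promoter sequence was available for 25 of the 41 members, as windows of 300 bases from RefSeq on build GRCm38.p6, each running from 250 bases before a start site to 50 after it. As the authors' build is mm39, these windows serve for their letters and carry the coordinates of GRCm38.p6. They were searched on both strands for CTTTGAT, a core of the TCF/LEF site, and GTGGGAA, a core of the Rbpj site, motifs that do not overlap each other. Of the 34 windows of members, 2 held CTTTGAT and 4 held GTGGGAA, and of all 32851 windows 3.73% and 6.38% did. The windows with CTTTGAT belong to Wnt11 and Wnt5b, which did not pass the test. Those with GTGGGAA belong to Wnt9a, which rose, to Tcf7l1, which fell, and to 2 start sites of Lef1, whose windows overlap and hold the same match. Counted by gene, GTGGGAA was found for 3 of the 25 members with a window, and for 1958 of all 27025 genes with a window. A match describes the letters of the window and does not show a binding site, and windows of Wnt5a, Wnt10a, Wnt7b, Fzd3 and Notum were not analysed here.

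The 4 windows below are those of the rising ligand Wnt9a and the falling factor Tcf7l1, in which capitals mark GTGGGAA as read on the opposite strand, and those of Wnt6, which rose beside Wnt10a, and Axin2, the inducible target, in which neither motif was found. They lie at chr11:59306680-59306979 (plus strand) for Wnt9a, chr6:72788996-72789295 (minus strand) for Tcf7l1, chr1:74771642-74771941 (plus strand) for Wnt6 and chr11:108920099-108920398 (plus strand) for Axin2, and each reads 5′ to 3′ on the strand of its gene. In these windows the motif of Wnt9a begins 240 bases before the start site and that of Tcf7l1 begins 55 bases before it. The 34 windows of members had a median GC content of 67.7%, against 52.7% over all windows.
Wnt9a: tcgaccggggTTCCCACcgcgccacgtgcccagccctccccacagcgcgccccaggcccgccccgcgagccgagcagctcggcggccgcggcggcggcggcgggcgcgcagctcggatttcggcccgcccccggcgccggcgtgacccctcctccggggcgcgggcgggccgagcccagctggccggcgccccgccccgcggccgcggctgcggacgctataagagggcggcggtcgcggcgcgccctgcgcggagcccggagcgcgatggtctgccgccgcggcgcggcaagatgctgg
Tcf7l1: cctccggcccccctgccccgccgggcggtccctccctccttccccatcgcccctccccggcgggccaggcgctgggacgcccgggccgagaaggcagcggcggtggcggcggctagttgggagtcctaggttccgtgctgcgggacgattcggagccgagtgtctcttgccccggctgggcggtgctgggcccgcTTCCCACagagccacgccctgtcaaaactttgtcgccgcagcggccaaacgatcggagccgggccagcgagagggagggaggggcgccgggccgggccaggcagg
Wnt6: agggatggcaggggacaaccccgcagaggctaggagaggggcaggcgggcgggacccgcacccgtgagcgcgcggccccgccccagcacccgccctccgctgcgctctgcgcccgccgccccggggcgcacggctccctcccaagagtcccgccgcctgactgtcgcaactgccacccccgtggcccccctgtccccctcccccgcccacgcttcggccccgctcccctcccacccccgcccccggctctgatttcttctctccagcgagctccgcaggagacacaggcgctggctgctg
Axin2: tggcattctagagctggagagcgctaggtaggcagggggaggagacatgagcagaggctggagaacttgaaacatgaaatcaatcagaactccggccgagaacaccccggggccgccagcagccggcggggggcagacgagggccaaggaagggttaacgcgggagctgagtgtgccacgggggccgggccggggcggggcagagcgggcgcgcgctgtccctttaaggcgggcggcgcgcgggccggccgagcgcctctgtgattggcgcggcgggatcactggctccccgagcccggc

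Wnt6 and Wnt10a are adjacent protein-coding genes on chromosome 1, with none between them, and were the only members of the table next to each other. Both had larger log2 fold changes than any of the 8 protein-coding genes of the authors' deposited table on each side of them. Genes absent from that table may lie between these. The next gene on the Wnt6 side, Prkag3, which encodes a regulatory subunit of the AMP-activated kinase, rose from a fitted 6.68 to 85.6, with a log2 fold change of 3.68 (SE 0.48, adjusted p = 2.03e-13) in the authors' deposited table. Beyond it Cyp27a1, Ttll4, Stk36 and Rnf25 also rose, by log2 fold changes that the authors' deposited table gives as 1.06, 0.50, 1.50 and 0.90. On the Wnt10a side, Nhej1 had a log2 fold change of 0.42 and did not pass (adjusted p = 0.282 in the authors' deposited table). Slc23a3 after it had 2.94 with an SE of 1.58 and did not pass either (adjusted p = 0.111 in the authors' deposited table). In all, 6 of the 16 flanking genes were called higher and 3 lower, with a median of 0.31, where 25.4% and 25.1% of all genes were called.

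**Figure D4:**
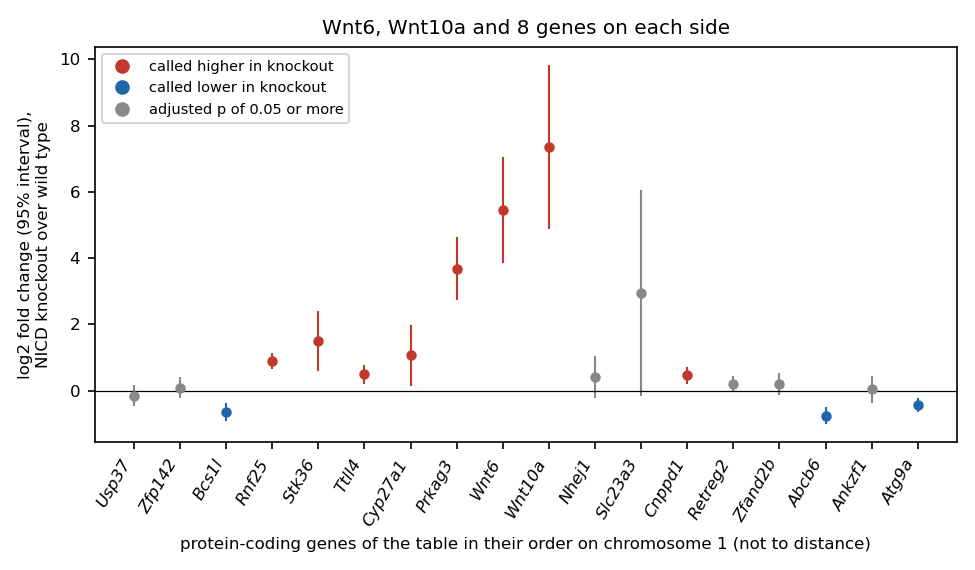
Log2 fold change with its 95% Wald interval for Wnt6, Wnt10a and the 8 protein-coding genes of the table on each side, in their order along chromosome 1 and not to distance; red was called higher, blue lower, and grey neither. The values are 1.06 for Cyp27a1, 3.68 for Prkag3, 5.45 for Wnt6, 7.35 for Wnt10a, 0.42 for Nhej1 and 2.94 for Slc23a3, which did not pass. The interval of Wnt6 (3.85 to 7.06) overlaps those of Prkag3 (2.74 to 4.62) and Wnt10a (4.88 to 9.83).

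Other genes of the pathway, a list of 76 of which 66 were tested, showed 24 falls and 11 rises by the calls of the authors' deposited table, and its median log2 fold change was -0.16 against 0.02 over all genes. In all 53.0% of the 66 were called, close to the 50.5% over all genes. By direction 36.4% were lower and 16.7% higher, beside 25.1% and 25.4% of all genes. Those acting outside the cell or at the membrane had 8 lower and 1 higher of 16 tested (50% and 6.25%). Those of planar polarity had 4 lower and 3 higher of 12 (33.3% and 25%), shares near those of all genes. Daam2, a formin that links Wnt signals to the actin skeleton, fell 43.4-fold, from a fitted 2640 to 60.9 (log2 fold change -5.44, SE 0.25, adjusted p = 1.79e-99 in the authors' deposited table). Gpc4, a heparan sulfate proteoglycan of the cell surface that binds Wnt ligands, fell 7.72-fold and Kremen1, a receptor for Dkk inhibitors, fell 4.99-fold. Gpc6, Prickle2 and Apcdd1 fell 3.14-fold, 3.07-fold and 3.01-fold: these encode a second glypican, a planar polarity protein and an inhibitor of Wnt receptors. Tspan12, which helps Fzd4 respond to its ligand Norrin, fell 2.79-fold, and the Dishevelled-binding gene Dact3 fell 2.59-fold. Adgra2, a membrane protein through which cells respond to Wnt7a and Wnt7b, fell from a fitted 581.5 to 291.3. Gsk3b, the kinase that marks beta-catenin for destruction, fell 2.06-fold, from 3025 to 1470, and the corepressor gene Ctbp1 fell 1.54-fold. The steepest rise of the list was that of Igfbp4, a secreted binding protein that also blocks Frizzled and Lrp6, from a fitted 49.5 to 4862 (log2 fold change 6.62, SE 1.27, adjusted p = 1.08e-06 in the authors' deposited table).

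Genes known as targets of beta-catenin in other tissues were listed too. Of 28 on the list 18 were tested, of which 4 rose and 6 fell by the calls of the authors' deposited table, and the median log2 fold change was -0.03 against 0.02 over all genes. These are 22.2% higher and 33.3% lower, beside 25.4% and 25.1% of all genes, and 55.6% called beside 50.5%. Without the targets that are members, 14 were tested, of which 14.3% rose and 42.9% fell, with a median of -0.26. The targets that rose were Axin2 and Notum, which are members, together with T (brachyury, a mesoderm factor) and Bmp4. T and Bmp4 had wild type levels under 1 normalised count per library and fitted levels of 29.4 and 355.8 in the knockout. With wild type set at that floor of 1, they were 29.4-fold and 355.8-fold higher. Without the floor, the interval of the log2 fold change was 3.17 to 7.81 for T and 7.20 to 11.3 for Bmp4. The authors' deposited table gives them adjusted p-values of 1.57e-05 and 1.23e-17. The targets that fell were Ccn5, from a fitted 1192 to 70.6 (16.9-fold), Apcdd1 (3.01-fold), Sox9 (2.60-fold), Ccn4 (2.58-fold), Twist1 (1.97-fold) and the cyclin gene Ccnd1 (1.88-fold). Several genes of the target list answer to other pathways too, Sox9 and Ccnd1 to Notch among them. The part of any pathway in the rises or falls of the list was not tested. Tcf7 and Rnf43 followed by p and did not pass, and Rnf43, a ligase that removes Frizzled receptors, had a log2 fold change of 2.16 with an SE of 1.55 in the authors' deposited table.

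**Figure D5:**
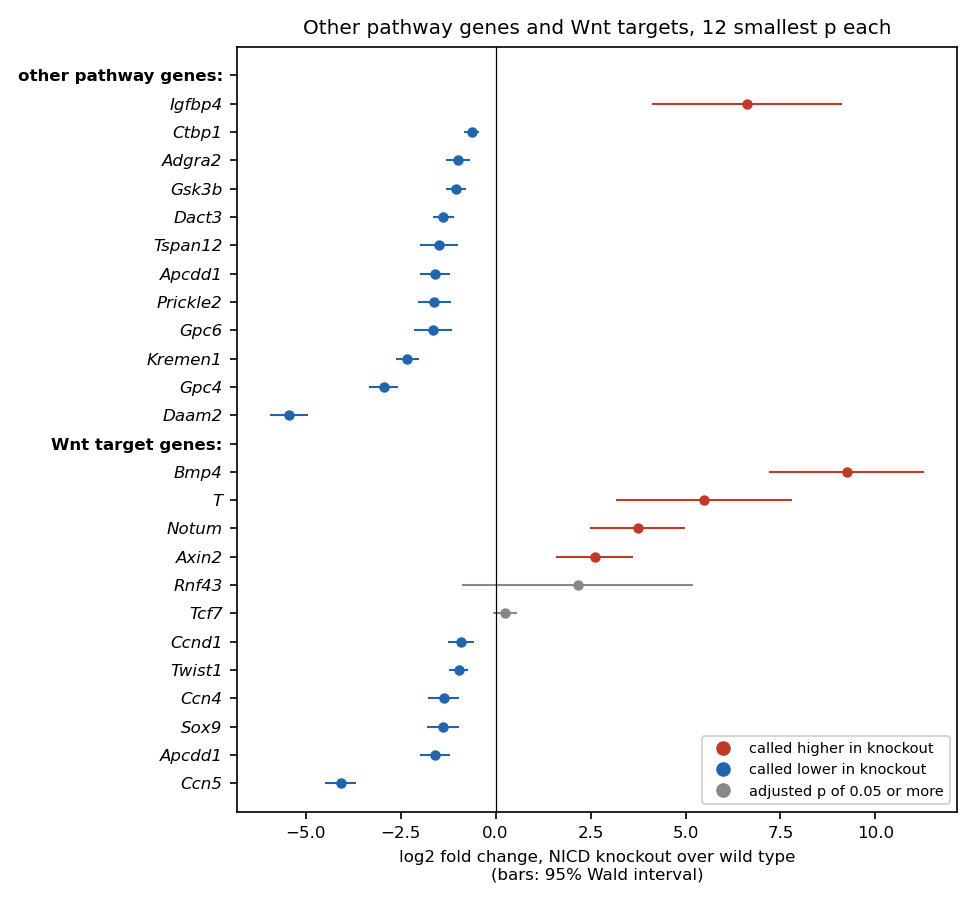
Knockout over wild type log2 fold change, with 95% Wald intervals, for the 12 genes of smallest p among the other pathway genes (top) and among the Wnt targets (bottom), in the same colours as for the members. All of the 12 pathway genes lie left of 0 except Igfbp4, and of the targets Bmp4, T, Notum and Axin2 (red) and Tcf7 and Rnf43 (grey) lie on the right and the other 6, in blue, on the left.

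Marker genes of other cell types were read beside these changes. Over all genes tested 25.4% were called higher and 25.1% lower. Pericyte and smooth muscle markers were called lower in the knockout in 10 of 11 cases. The other, Cnn1, had a log2 fold change of -3.69 and did not pass (adjusted p = 0.0837 in the authors' deposited table). Their summed fitted level was 138010 in wild type and 9457 in the knockout, of which Acta2 held 81441 and 5224. Mesenchymal markers were all called, 5 of 8 lower and 3 higher, with sums of 298770 and 140680. Col1a1, Vim and Fn1 fell but had fitted levels of at least 8050 in each line. Col3a1 fell from a fitted 13525 to 1423 and Pdgfrb from 16873 to 2081. The 3 that rose were Col1a2, from 15.5 to 37.4, Pdgfra, from 33.6 to 172.5, and Hmga2, from 5414 to 11001. Of the mature fat cell markers, 4 of 8 were tested, and those called went opposite ways. Fabp4, a fatty acid carrier, rose 70.3-fold, from a fitted 4.37 to 307.4 (adjusted p = 8.20e-34 in the authors' deposited table), and Lpl, which releases fatty acids from lipoproteins, fell 5.38-fold, from 2229 to 414.4 (adjusted p = 1.52e-51 in the authors' deposited table). Neither Pparg, the regulator of fat cell formation, at a fitted 14.4 in wild type and 4.39 in the knockout, nor Cebpa, at 29.4 and 38.9, passed (adjusted p = 0.0542 and 0.501 in the authors' deposited table). Blood cell markers had 2 of 5 higher and 1 lower, with Cd68 going from 179 to 2238 and the defining marker Ptprc at 3.74 and 13.7. Endothelial markers summed to 121.4 and 98.5, with 1 of 5 called, lower, and the 2 epithelial markers tested summed to 45.9 and 66.6. These keratins were called in opposite directions by the authors' deposited table: Krt8 rose from a fitted 5.38 to 54.4 (adjusted p = 1.12e-06) and Krt14 fell from 40.6 to 12.2 (adjusted p = 0.00314). In RNA from whole cultures, fewer cells of a type and less RNA per cell cannot be told apart, and the part of these marker changes in the Wnt changes was not tested.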

How the data were processed

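TRI Reagent was used to extract total RNA for 6 libraries (3 per genotype), per the labels' protocols. Salmon, DESeq2 and the build mm39 appear in the submitters' processing notes without versions or settings, and the sources used here do not give any filter on low counts. The authors deposited for each gene, per the file headers, a mean normalised count (a signal that is never negative), a log2 fold change and its SE on the log2 scale, the Wald statistic (a score), a p-value and its Benjamini-Hochberg adjusted form. Recomputing the last 3 from the other columns matched them to within 1.56e-13, which shows that p was adjusted over all 14470 genes that have one.

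A gene was called where the adjusted p that the authors obtained with DESeq2 was under 0.05, and no new group test was fitted, as the table holds no single libraries. Computed here were 95% intervals (1.96 SE), fitted group levels, fold changes with a floor of 1 normalised count per library (3 counts over a group), levels per kb and neighbour medians. Exon lengths and gene order came from GENCODE M21 (GRCm38), matched by identifier for 99.9% of rows. Neighbour medians use, on each side, the nearest 10 protein-coding genes whose mean is 100 or more. After subtraction each gene kept its own SE, with no error added for the neighbour median, so those adjusted p-values may be too small. Named are all members past the threshold or with a mean of at least 100, and the 12 genes of smallest p in each of the 2 further lists. Members and lists were chosen with earlier results of these data known. The sources used here do not give how strand and reads shared between genes were handled. The adjustment and tests were tested on simulated data. Python 3.11.15, numpy 2.4.6, pandas 2.3.3, scipy 1.17.1 and matplotlib 3.10.9 were used.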

Additional observations from a re-analysis of the deposited data

How the results depend on the processing

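Alternatives were a minimum mean of 10 or 100 with p adjusted again, Bonferroni adjustment, a Wald test that the change exceeds 2-fold, centring on genes whose mean is 100 or more (a shift of -0.0497), subtraction of the neighbour median, and the other row for a symbol on 2 rows, which touched no member. Leaving out libraries could not be done with 1 value per gene. No paired analysis was possible because the columns carry no library. Members called lower numbered 5 with Bonferroni and 3 in the 2-fold test, against 12, and members called higher numbered 6 at a minimum mean of 100, against 15, where fewer genes were tested. Other pathway genes called higher numbered 3 with Bonferroni and 2 in the 2-fold test, against 11, and those called lower 11 and 5, against 24. Targets called lower numbered 2 in the 2-fold test, against 6, and targets called higher 1 at a minimum mean of 100, against 4. The median of the targets was 0.02 after centring and -0.26 at a minimum mean of 100, against -0.03. Over all genes 3175 were called with Bonferroni and 1606 in the 2-fold test, against 7303. Of single members, Bonferroni ended 9 calls and the 2-fold test 12. Direction turned with neighbours subtracted for Apc (-0.32) and Fzd8 (0.19), and with centring for Lef1 (0.04), of which Apc alone passed the test. The cause of these shifts was not tested.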
